A study of Mus musculus with 42 samples.

Results

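The 4 Hox clusters of the mouse were described by 478 of the 141251 tiles of 100 bp in a methylation table made by reduced representation bisulfite sequencing (RRBS), an assay that reads cytosine methylation in CpG-rich restriction fragments. A tile was a member when it lay inside one of 4 windows on mm10 (GRCm38): chr6:52145000-52265000 for HoxA (139 tiles), chr11:96190000-96375000 for HoxB (121), chr15:102915000-103045000 for HoxC (92) and chr2:74660000-74775000 for HoxD (126). No measured value entered this choice. The tiles of a window are numbered here from its lowest coordinate upward.

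The study gave adult C57BL/6J males a vehicle or di(2-ethylhexyl) phthalate (DEHP, a plasticiser) at 2.5 mg/kg/day (low) or 25 mg/kg/day (high) for 67 days and mated them to females that had no exposure. RRBS was run on the males' sperm (C57BL/6, 14 weeks, 4 samples per dose) and on embryonic and extra-embryonic tissue of the wild-type offspring at embryonic day 7.5 (C57BL/6 * DBA/2J, 3 samples of each tissue per dose), and RNA sequencing on both offspring tissues. The methylation table holds 9 libraries, 3 called control, 3 low and 3 high, and an expression table holds 6, 2 per dose. The column names give dose and number but no tissue, so the tissue behind the values below is not known, and control means the offspring or sperm of vehicle males. Nothing in the labels says that libraries of a group came from separate animals, so p-values measure the spread between these libraries, which may be technical.

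Hox genes encode homeodomain transcription factors that assign position along the head-to-tail axis. In mammals they lie in 4 clusters, and members with the same number in different clusters are called paralogs and descend from the same ancestral gene. Low-numbered genes are switched on first and act toward the head, high-numbered genes later and toward the tail. In embryonic stem cells and early embryos the clusters are a textbook target of Polycomb proteins, and their CpG islands are known as regions of low DNA methylation.

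Sequence was at hand for 26 Hox tiles, those that lie wholly inside a promoter of the RefSeq table (250 bases before to 50 after a gene's start, GRCm38.p6). The 8 tiles below were chosen after their values were seen, to show starts over a range of methylation. They include the lowest mean of the 26 (0.867%) and the highest (44.3%), but HoxB tiles 32 and 33, at 29.4 and 27.2%, are not shown. The Hoxa6 tile read 40.4% in low library 1 and 12.4 to 18.9% in the other libraries. The Hoxa13 tile read from 0 to 13.8% over the libraries. Both the Hoxa13 and the Hoxd1 tile lay above the median of the 26 (6.76%). The first 3 tiles below had means over the 9 libraries of 31.6% (Hoxd12), 44.3% (Hoxd4) and 19.4% (Hoxa6), and the other 5 of 3.27% (Hoxd11), 3.09% (Hoxd9), 8.02% (Hoxa13), 0.867% (in Hoxd8, at the start of Gm38462, a predicted gene on the opposite strand) and 14.8% (Hoxd1). Each is written on the strand of the gene named, with the CpG sites, the positions that can carry the methylation, in capitals.
HoxD tile 12, Hoxd12, chr2:74674801-74674900, + strand: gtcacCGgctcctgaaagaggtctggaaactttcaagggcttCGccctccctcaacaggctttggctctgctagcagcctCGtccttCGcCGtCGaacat
HoxD tile 77, Hoxd4, chr2:74721901-74722000, + strand: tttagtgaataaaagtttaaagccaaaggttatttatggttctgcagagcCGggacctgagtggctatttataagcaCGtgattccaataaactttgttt
HoxA tile 48, Hoxa6, chr6:52208801-52208900, - strand: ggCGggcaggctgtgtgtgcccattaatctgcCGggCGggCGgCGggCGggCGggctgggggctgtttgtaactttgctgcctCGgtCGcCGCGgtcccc
HoxD tile 25, Hoxd11, chr2:74682101-74682200, + strand: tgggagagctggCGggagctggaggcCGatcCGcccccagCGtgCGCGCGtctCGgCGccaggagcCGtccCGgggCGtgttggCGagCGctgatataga
HoxD tile 54, Hoxd9, chr2:74697701-74697800, + strand: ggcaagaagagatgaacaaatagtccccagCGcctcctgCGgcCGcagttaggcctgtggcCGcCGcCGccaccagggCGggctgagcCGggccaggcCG
HoxA tile 139, Hoxa13, chr6:52260901-52261000, - strand: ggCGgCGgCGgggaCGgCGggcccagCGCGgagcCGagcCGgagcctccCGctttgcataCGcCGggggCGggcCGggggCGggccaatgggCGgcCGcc
HoxD tile 72, Gm38462, chr2:74705601-74705700, - strand: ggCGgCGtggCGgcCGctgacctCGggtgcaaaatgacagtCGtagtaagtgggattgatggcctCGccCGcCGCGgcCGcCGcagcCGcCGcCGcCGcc
HoxD tile 121, Hoxd1, chr2:74762901-74763000, + strand: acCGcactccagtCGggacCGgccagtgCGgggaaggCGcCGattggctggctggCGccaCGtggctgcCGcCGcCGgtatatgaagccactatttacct

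These tiles differ in how many CpG sites they hold. The Hoxd4 tile has 2 and the Hoxd12 tile 6, against 14 in Hoxd11, 16 in the tile at Gm38462 and 17 in Hoxa13. CpG number did not order the levels alone: the Hoxa6 tile has 11 sites at 19.4%, and the Hoxd9 tile 9 sites at 3.09%. Among all 26 tiles with sequence, the 10 with 10 or more CpG sites had a median of 5.38%, the 9 with 5 to 9 sites 8.30% and the 7 with 1 to 4 sites 7.35%.

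The Hox clusters were neither unmethylated nor fully methylated but sat in a low to intermediate range. Their mean over tiles was 18.3% ± 0.613 (SD over 9 libraries), against 35.9% ± 0.312 for the tiles outside the windows. The difference of 17.6 percentage points had the same sign in 9 of 9 libraries (exact two-sided sign-flip permutation over libraries, p = 0.00391, the smallest this test can give with 9; adjusted over 5 such comparisons 0.00391). At the top of the scale, 0 of 478 Hox tiles had a mean over 80%, where 15.5% of all tiles lay. At the bottom the Hox tiles were sparser too, with 7 tiles (1.46%) under 1% methylation against 13.9% of all tiles. In between, 400 Hox tiles (83.7%) had a mean from 5 to 50%, against 33.8% of all tiles. Counted within each library the share from 5 to 50% was 81.0% ± 1.03 in the Hox windows and 33.5% ± 1.01 outside, higher in 9 of 9 libraries (exact sign-flip permutation p = 0.00391, adjusted 0.00391). The band from 5 to 50% was not among the planned shares, so this p-value only describes how alike the libraries are on that band. In the planned bands the contrast was smaller. Under 10% lay 32.6% of Hox tiles and 38.9% of all tiles, and from 10 to 80% lay 67.4% and 45.6%. The deposited values come without read depth, so no interval can be given for a single tile, and RRBS covers only part of each cluster.

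**Figure D1:**
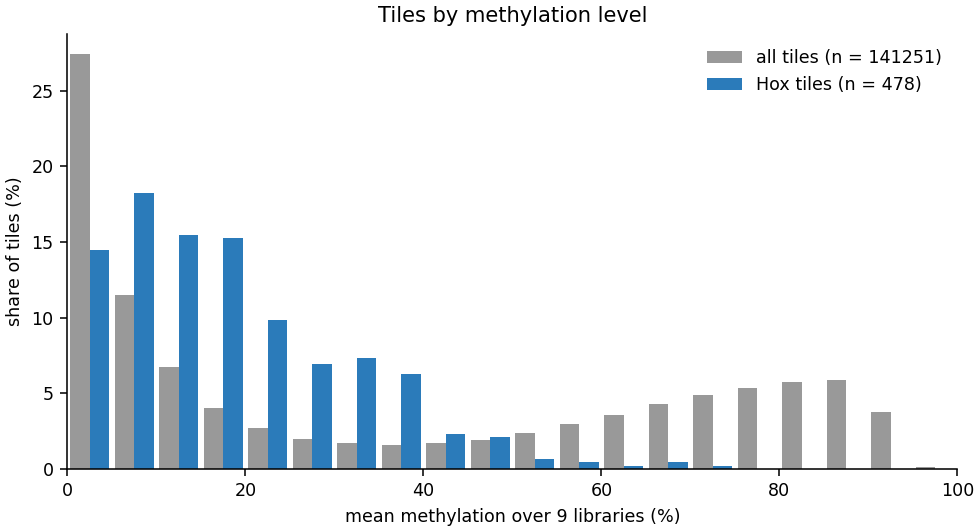
Share of tiles (vertical axis, percent) in each step of 5 percentage points of mean methylation over 9 libraries (horizontal axis), for the 478 Hox tiles (blue) and all 141251 tiles (grey). All tiles gather at both ends of the scale, while Hox tiles fill the range up to 40% and none lies over 80%.

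Highest and lowest tiles of each cluster show that range. HoxB tile 18, in the predicted gene Gm11539, was the highest of all at 73.7%; its control libraries read 75.4, 72.7 and 94.2%, its low libraries 78.3, 67.4 and 71.2% and its high libraries 69.8, 61.0 and 73.1%. HoxD tile 81, which overlaps Hoxd3 and Hoxd4, reached 61.3%, with controls of 78.4, 58.2 and 50%, low libraries of 55.3, 54.0 and 67.7% and high libraries of 62.9, 55.9 and 69.3%. HoxC tile 92, beyond Hoxc4, averaged 54.3% and ranged from 47.8 to 62.2% over the 9 libraries. In these tiles the groups overlapped, and libraries of a single group lay far apart, as the controls of HoxD tile 81 did. HoxA tile 51, upstream of Hoxa6, averaged 51.6% and ranged from 43.7 to 62.4%.

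At the other end, HoxC tile 1, 281 bp upstream of the Hoxc13 start, averaged 0.332% and read 0 in 6 libraries and at most 1.06% in the others. HoxD tile 69 in Hoxd8 read between 0.240 and 0.781% in all 9 libraries. The lowest HoxB tile, tile 96 in Hoxb4, was higher at 1.74%, so that only HoxB had 0 tiles with a mean under 1%.

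Values of the Hox tiles were closely correlated between the 9 libraries. Pearson's r over the 478 tiles was 0.883 to 0.928 for 9 pairs of libraries of the same group and 0.883 to 0.931 for 27 pairs of different groups, given as a description because the points share tiles and libraries. Spread within a group was that of the rest of the table. The median pooled within-group SD was 3.33 percentage points over Hox tiles and 3.26 over all tiles, and among tiles of 10 to 40% methylation 4.09 and 3.97. Single tiles could be far noisier. HoxB tile 73, 437 bp from the start of Hoxb6, read 9.86, 36.7 and 31.2% in controls, 12.2, 12.5 and 29.5% in low and 19.6, 23.3 and 20% in high libraries, a within-group SD of 10.04, and HoxB tile 14 and HoxD tile 81 had SDs of 10.7 and 10.3.

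Tiles at gene starts were the less methylated ones in every cluster. The 139 tiles whose centre lay within 500 bp of an annotated start, of a Hox gene or of another gene in the RefSeq promoter table, averaged 10.9% ± 0.455 (SD over 9 libraries), and the other 339 tiles 21.3% ± 0.711. The start tiles were 10.4 ± 0.453 percentage points lower, in 9 of 9 libraries (exact two-sided sign-flip permutation, p = 0.00391). In HoxA the difference was -8.20, in HoxB -10.8, in HoxC -10.9 and in HoxD -11.9 percentage points, each in 9 of 9 libraries. By distance from the nearest Hox start alone, tile means were 12.7% at 0 to 250 bp (55 tiles), 10.4% at 250 to 500 bp (54), 14.9% at 500 to 1000 bp (78), 20.1% at 1000 to 2000 bp (89), 21.2% at 2000 to 4000 bp (60) and 23.03% beyond (142). The lowest class was thus not the innermost one. Tiles downstream of a start by up to 1000 bp had a median of 8.91% (133 tiles) and tiles upstream by up to 1000 bp 13.4% (54 tiles). In HoxB the order was the other way, at 11.4% downstream (22 tiles) and 6.79% upstream (6 tiles). How many CpG sites a tile holds could not be set against distance outside the 26 tiles with sequence.

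**Figure D2:**
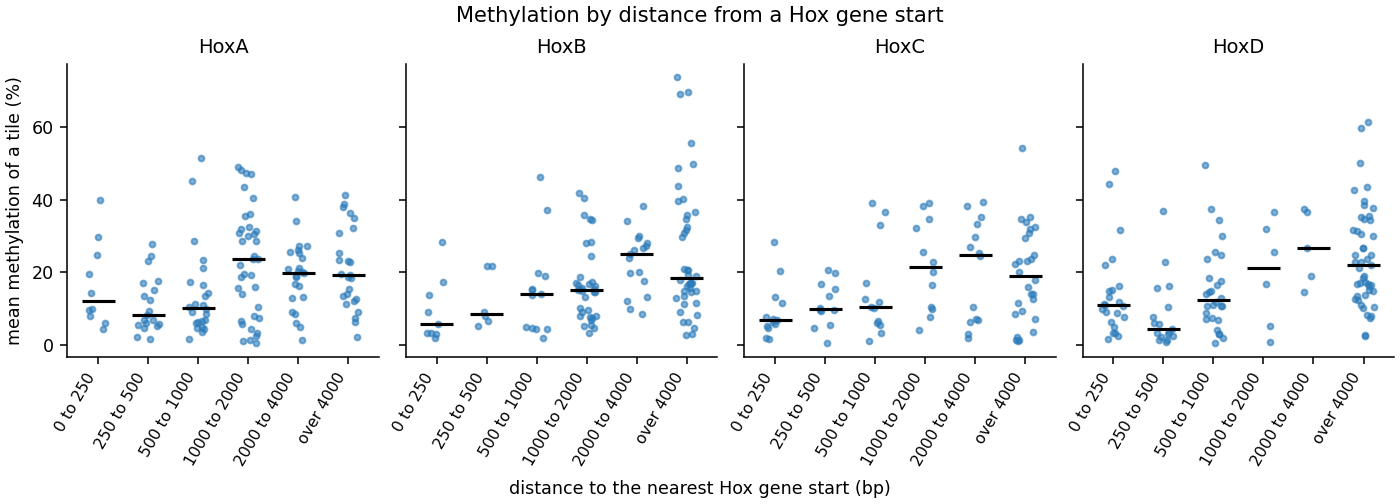
Mean methylation of each tile over 9 libraries (vertical axis, percent) by distance of its centre from the nearest Hox gene start (horizontal axis, bp) in each cluster; points are tiles and bars medians. Points at starts are mostly under 20%, with high tiles at starts of up to 39.9% in HoxA, 28.3% in HoxB and HoxC and 47.8% in HoxD, and tiles further away spread up to 73.7%.

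Hox starts were not alike. Of 39 Hox genes, 33 had a tile within 500 bp of a start (109 tiles), and their start means had a median of 9.36%. Means under 10% were found in 18 genes, 10 to 20% in 8 and over 20% in 7. Group 13 genes, which act at the tail end, were low in all 4 clusters, with Hoxc13 at 4.12% (5 tiles), Hoxd13 at 4.60% (4), Hoxa13 at 5.90% (3) and Hoxb13 at 7.93% (3). Other low starts were those of Hoxd10 (5.35%, 2 tiles), Hoxd3 (5.55%, 3), Hoxb9 (5.61%, 6) and Hoxc8 (5.63%, 4).

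The 7 high starts lay in HoxA, HoxB and HoxD and were those of Hoxa6, Hoxa7, Hoxb1, Hoxb2, Hoxb6, Hoxd4 and Hoxd12; the highest start of HoxC was Hoxc11 at 19.1%. The median start mean was 10.5% over the 18 genes of groups 1 to 8 and 7.81% over the 15 of groups 9 to 13. Hoxd4 stood at 44.3% and Hoxa7 at 24.8%, each from 1 tile. Hoxb1, a gene of hindbrain patterning, stood at 28.3%, and Hoxb2 and Hoxb6 at 21.7%, again from 1 tile each. Hoxa6 was at 25.0% over 5 tiles (13.5 to 39.9%). Hoxd12 stood apart among well-covered genes, with 6 start tiles from 21.9 to 47.8% and a mean of 30.8%. Its paralog Hoxc12 was at 7.21% (2 tiles), and its neighbours were low on both sides, Hoxd11 at 7.81% (9 tiles) and Hoxd13 at 4.60%. In group 6, Hoxa6 and Hoxb6 were over 20% and Hoxc6 was at 6.27% (1 tile). The starts taken for Hoxb6, Hoxc6 and Hoxc12 are the outer ends of the genes, so other starts of these genes may lie elsewhere. This limit holds for the paralog differences of both group 6 and group 12. The 1 Hoxb6 tile also read from 9.86 to 36.7% over the libraries, so the group 6 difference is uncertain on that ground too.

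The start tile of highest mean in each cluster was measured in every library as follows. HoxD tile 13, 38 bp from the Hoxd12 start, read 52.8, 48.6 and 44.1% in controls, 47.8, 44.1 and 58.4% in low and 48.2, 43.2 and 42.9% in high libraries. HoxA tile 47, in Hoxa6, read 38.8, 36.6 and 43.3% in controls, 36.2, 35.8 and 40.7% in low and 43.5, 42.4 and 41.8% in high libraries. No library brought either tile into the range of the low starts, and the groups overlapped. HoxC tile 24, in Hoxc11, was less even, at 31.97, 36.3 and 14.9% in controls, 21.6, 21.6 and 32.8% in low and 35.3, 30.1 and 30.4% in high libraries. HoxB tile 119, in Hoxb1, read 27.4, 33.3 and 36.6% in controls, 25.1, 13.1 and 31.3% in low and 35.3, 27.2 and 25.3% in high libraries.

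Along the clusters there was no steady gradient from low-numbered to high-numbered genes. Spearman's rho of tile mean with position was -0.119 in HoxA, 0.080 in HoxB, -0.181 in HoxC and -0.124 in HoxD (139, 121, 92 and 126 tiles; descriptions, since neighbouring tiles share fragments), while rho with distance from the nearest start was 0.348, 0.423, 0.493 and 0.507. Sorted by the number of the nearest Hox gene, HoxA tiles averaged 17.5% near groups 1 to 3, 20.1% near groups 4 to 8 and 17.7% near groups 9 to 13. HoxD had the same shape with a wider swing, at 16.3, 23.2 and 16.4%. HoxB had the opposite shape, at 20.96, 15.9 and 22.8%. Its 52 tiles near groups 9 to 13 include all 32 tiles of the long interval between Hoxb13 and Hoxb9, which averaged 29.5%. Neither the shape nor rho in HoxB was computed without those 32 tiles, so the shape may rest on them. HoxC, which has no gene of groups 1 to 3, averaged 18.7% near groups 4 to 8 and 15.5% near groups 9 to 13. This sorting does not follow gene order throughout, since the starts taken for Hoxa3, Hoxb3 and Hoxd3 lie beyond those of Hoxa6, Hoxb4 and Hoxd4. The span of Hoxd3 overlaps 33 tiles with a mean of 26.96%. Only 3 tiles, at 5.55%, were sorted under Hoxd3, and 25 tiles, at 29.2%, under Hoxd4. The shapes were not tested with other starts.

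Levels differed instead between stretches, which are separated by lengths with no tile, so where a stretch ends was not measured. In HoxD the 17 tiles in the 5 kb bin of the first Hoxd11 start averaged 10.2%, the 8 tiles of the next bin, at Hoxd12, 33.4%, and the 10 tiles in the bin of the Hoxd13 start 11.8%. These bins kept apart in every library, with means per library of 9.05 to 10.9%, 29.3 to 38.2% and 9.33 to 13.9%. No tile lies in the 5.6 kb between the measured tiles of Hoxd11 and Hoxd12 or in the 5.8 kb between those of Hoxd12 and Hoxd13. Between Hoxd1 and Hoxd4 a run of 6 bins averaged 18.5 to 36.8%, and on the far side of Hoxd4 the 3 tiles at the Hoxd3 start averaged 5.55% and the next 6 tiles 3.67%. The start taken for Hoxd3 is that of its outermost RefSeq transcript, which lies beyond Hoxd4. In HoxC, the 12 tiles from the bin of Hoxc8 up to that of Hoxc9 averaged 2.32 to 5.63% per bin, the lowest run of the cluster, and the 9 tiles at Hoxc9 averaged 20.5%. In HoxA the highest bin of at least 3 tiles was that of Hoxa6 (31.7%, 7 tiles), and the bin after it was at 9.69% (4 tiles).

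Touching tiles could differ by much within a stretch. Over 256 pairs of touching tiles in the windows, the median step was 4.84 percentage points, against 4.06 over 63917 touching pairs of the whole table. The largest was in HoxC, from 39.4% in tile 31 to 6.28% in tile 32, followed by HoxD tiles 13 and 14 at Hoxd12 (47.8 and 21.9%) and HoxA tiles 104 and 105 (4.48 and 29.8%).

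**Figure D3:**
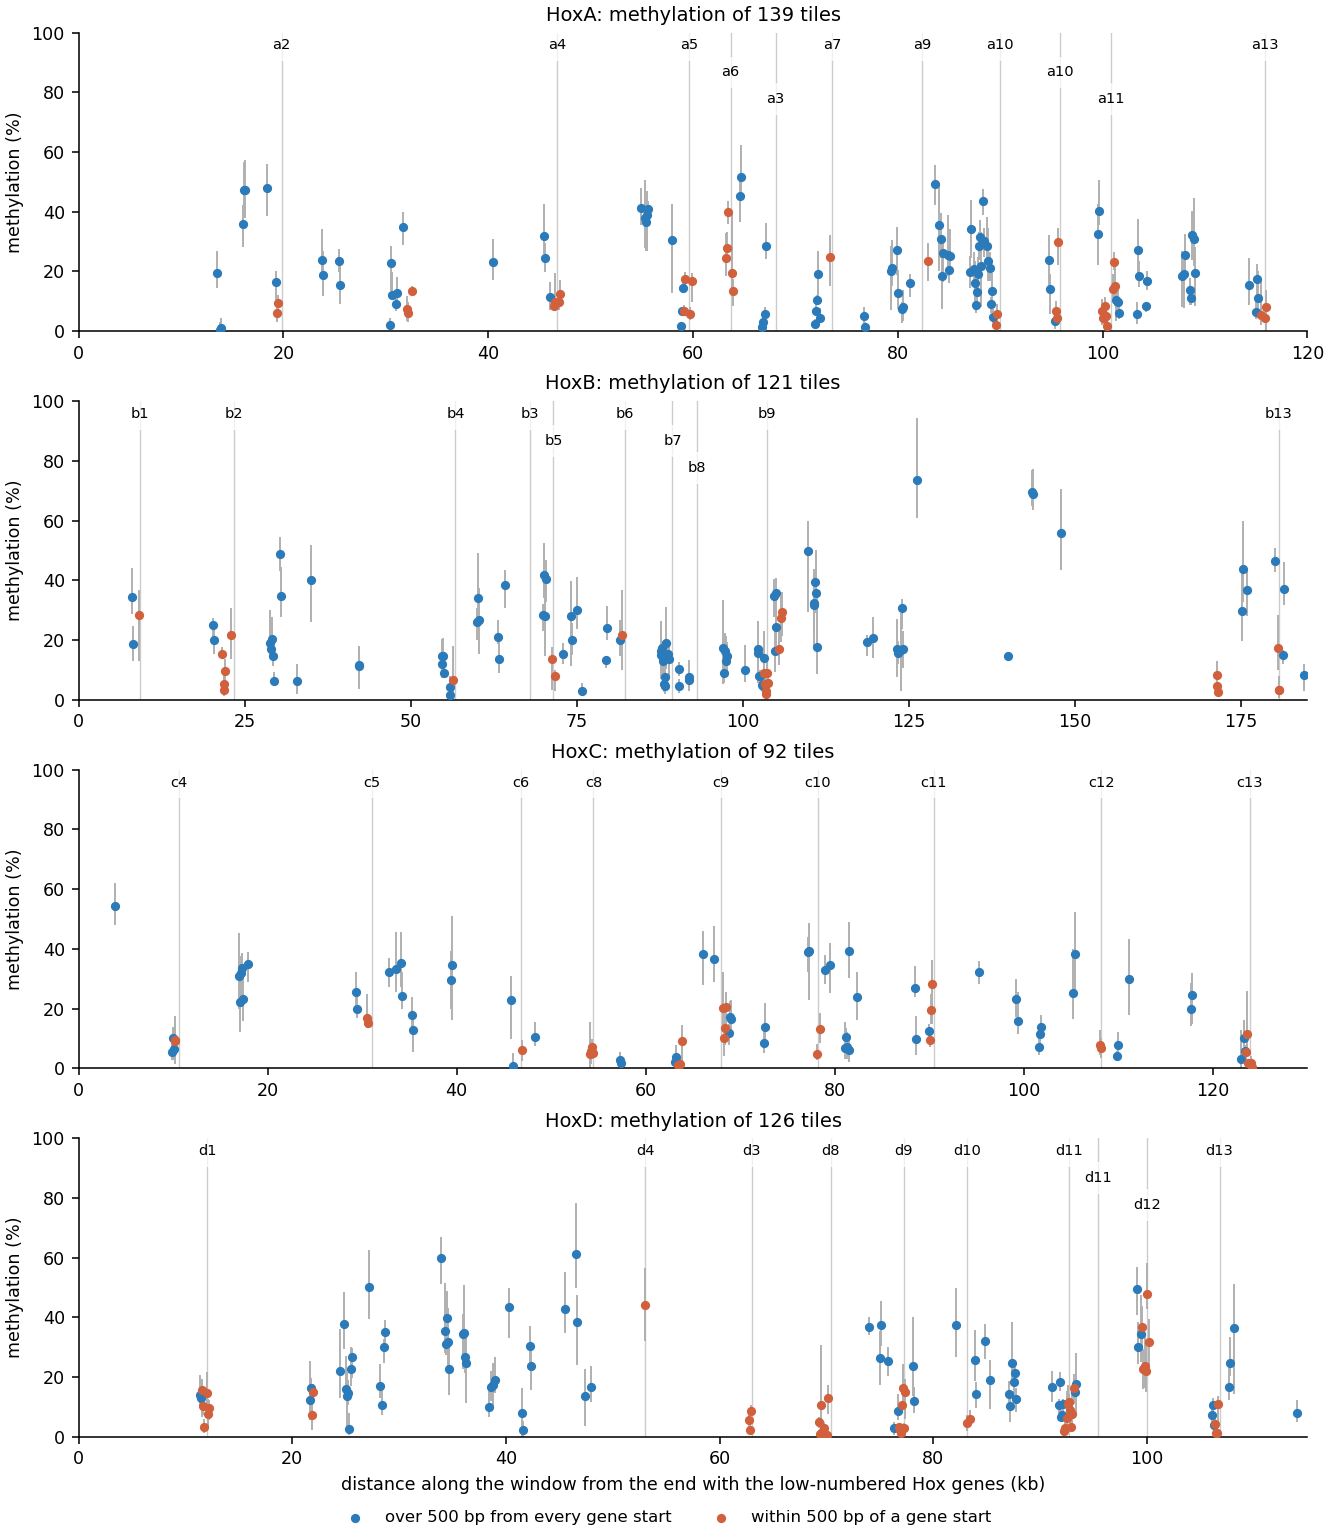
Methylation of each tile (vertical axis, percent) along the 4 windows (horizontal axis, kb from the end with the low-numbered genes); points are means over 9 libraries, orange within 500 bp of a gene start and blue elsewhere, grey bars the lowest and highest library, and vertical lines starts of the Hox genes named here, with the letter and number of the gene. Tiles at d12 stand above those at d11 and d13, tiles around c8 lie near the floor, and the highest tiles sit between b9 and b13.

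The largest stretch of higher methylation was in HoxB, in the long interval that separates Hoxb13 from Hoxb9 and the rest of the cluster. Its 32 tiles averaged 29.5% ± 1.39 (SD over 9 libraries) and held the 4 HoxB tiles over 50%, while the other 89 HoxB tiles averaged 16.3% ± 0.787 and none of them passed 48.8%. Tiles of the interval were not uniformly high. They ranged from 2.61 to 73.7%, and the low ones included 3 tiles at the start of the predicted gene Gm30134 with a mean of 5.14%.

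Small RNA genes of the clusters could be placed too. The hairpin of Mir196a-1 lies in that HoxB interval and overlaps HoxB tile 31 (49.8%), and the hairpin of Mir196b, between Hoxa9 and Hoxa10, overlaps HoxA tile 79 (25.2%). Their mature 5p products repress Hox mRNAs in vertebrates and share a seed (bases 2 to 8, in capitals, RefSeq GRCm38.p6), which is why the pair is shown.
mmu-miR-196a-5p: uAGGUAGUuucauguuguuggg
mmu-miR-196b-5p: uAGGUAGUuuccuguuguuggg
No tile overlaps the hairpins of Mir196a-2, Mir10a or Mir10b, so their methylation is not described here.

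Between clusters, mean levels were close, and their order rested on which tiles were counted. HoxB was highest at 19.8% ± 0.801 (SD, n = 9 libraries), HoxA was at 18.3% ± 0.437, HoxD at 18.1% ± 0.859 and HoxC lowest at 16.7% ± 0.783. The HoxB mean exceeded that of HoxC by 3.10 ± 0.458 percentage points in 9 of 9 libraries. Exact sign-flip permutation tests over libraries gave p = 0.00391 (adjusted over 6 pairs 0.00469) for each pair but HoxA and HoxD, which differed by 0.11 ± 0.736 percentage points (p = 0.652, adjusted 0.652). This test sees the libraries' spread and not the choice of tiles. Without the 32 tiles between Hoxb13 and Hoxb9, the mean of HoxA exceeded that of HoxB by 1.96 percentage points, and HoxB minus HoxC was -0.38 and HoxB minus HoxD -1.85 (adjusted p by the same exact test 0.00586, 0.0891 and 0.00586). At gene starts alone HoxA was highest, with 12.2% against 11.2% in HoxB, 10.8% in HoxD and 9.21% in HoxC, and away from starts HoxD was highest, with 22.7% against 22.02% in HoxB, 20.4% in HoxA and 20.1% in HoxC, although HoxB minus HoxD there was -0.67 with an adjusted p of 0.0977 in the exact test. HoxC stood below HoxD in both classes.

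Start tiles with sequence had a higher mean in the Hox windows than elsewhere, and 2 of the Hox tiles carried much of it. The 26 tiles inside RefSeq promoter sequences in the windows, 12 in promoters of Hox genes and 14 in those of other genes there, averaged 10.9% ± 0.618 (SD, n = 9 libraries; median 6.76%), and 10536 such tiles at other gene starts 7.42% ± 0.128 (median 3.52%), a difference of 3.52 ± 0.612 percentage points that was positive in 9 of 9 libraries (exact sign-flip permutation p = 0.00391, adjusted over 5 comparisons 0.00391). Against 72 tiles at starts of other developmental regulator families, such as Pax, Sox, Gata, Lhx and Dlx genes, a list made after the Hox values were seen, the difference was 2.105 ± 0.697 (9 of 9 libraries, exact p = 0.00391, adjusted 0.00391), with a mean of 8.83% and a median of 5.32% there. Without the Hoxd4 and Hoxd12 tiles (HoxD tiles 77 and 12) the other 24 averaged 8.68%, below the mean of those families. That mean was taken with no tile removed and includes 4 tiles over 30%. The median of the 24 tiles, 6.04%, stayed above the families' 5.32%. The 12 tiles in Hox promoters, all of HoxA or HoxD genes, averaged 13.9% and the other 14 averaged 8.39%. These splits were made after the values were seen and were not tested. Tiles under 1% made up 27.8% of the other developmental starts and 33.3% of the other gene starts, and 1 of the 26 tiles in the windows (3.85%). At matched CpG content the medians were not all ordered alike. In tiles with 10 or more CpG sites they were 5.38% (Hox windows, 10 tiles), 3.41% (other developmental, 24) and 3.05% (others, 5149), in tiles with 5 to 9 sites 8.30, 8.28 and 3.72%, and in tiles with 1 to 4 sites 7.35% (7 tiles), 0.835% (6) and 9.85% (1083). The test compares libraries on fixed tiles, and the Hox set is small. RefSeq promoters covered 3 of the 10 Hox genes of HoxB and 1 of the 9 of HoxC. No Hox promoter of these 2 clusters held a tile with sequence, so the comparison does not describe them.

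Paternal DEHP dose was compared next, as the study's question was whether exposure of the father is seen in methylation. No Hox tile was called at either dose. In limma on all 141251 tiles, with Benjamini-Hochberg adjustment over all of them, 0 of 478 Hox tiles had an adjusted p under 0.05 for low against control, high against control, high against low or both doses against control, and the share called over the whole table was 0% in each. The smallest adjusted p of a Hox tile was 0.466, 0.839, 0.753 and 0.426 in that order.

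At an unadjusted p under 0.05 in the same fit, the Hox counts can be read against the whole table. For low against control 10 of the 478 Hox tiles were higher and 14 lower, while of all 141251 tiles 3.26% were higher and 2.23% lower. High against control gave 14 and 12 of the 478 (over all tiles 2.64% and 1.8%). High against low gave 19 and 9 of the 478 (over all tiles 2.39% and 2.32%). Both doses against control gave 13 and 15 of the 478 (over all tiles 3.05% and 2.03%). The median difference over Hox tiles was -0.45 percentage points for low, -0.24 for high and -0.31 for both doses against control, where that over all tiles was 0.066, 0.084 and 0.086. Without control library 1 the Hox medians were -0.043, 0.032 and 0.048, so that the sign turned for high and for both doses. These 3 comparisons share the control libraries.

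Library means over the 478 Hox tiles were 19.4, 18.5 and 18.3% in controls, 17.5, 17.5 and 18.7% in low and 17.99, 18.6 and 18.4% in high libraries. Low libraries 1 and 2 were the lowest of the 9, and low library 3 was above 2 of the controls. The difference from control was -0.85 percentage points in low (exact two-sided permutation over libraries, p = 0.3; 3 libraries against 3 cannot go below 0.1) and -0.39 in high (p = 0.5), with adjusted p of 0.571 and 0.625 over 20 values. Without control library 1, the highest of the 9, these differences were -0.50 and -0.046, and over each library left out they ranged from -1.25 to -0.50 and from -0.62 to -0.046. In HoxA the low libraries, at 17.5, 18.1 and 18.2%, all lay below the controls, at 18.9, 18.5 and 18.3% (p = 0.1, adjusted 0.571 in the same exact test). In HoxB, HoxC and HoxD low and control libraries overlapped, with differences of -1.12, -1.04 and -0.72 percentage points and adjusted p of 0.571 each. With 1 library left out, HoxB ranged from -1.74 (without low 3) to -0.64 (without low 2), HoxC from -1.49 (low 3) to -0.59 (control 1), HoxD from -1.42 (control 3) to -0.14 (control 1) and HoxA from -0.74 (low 3) to -0.38 (low 1).

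**Figure D4:**
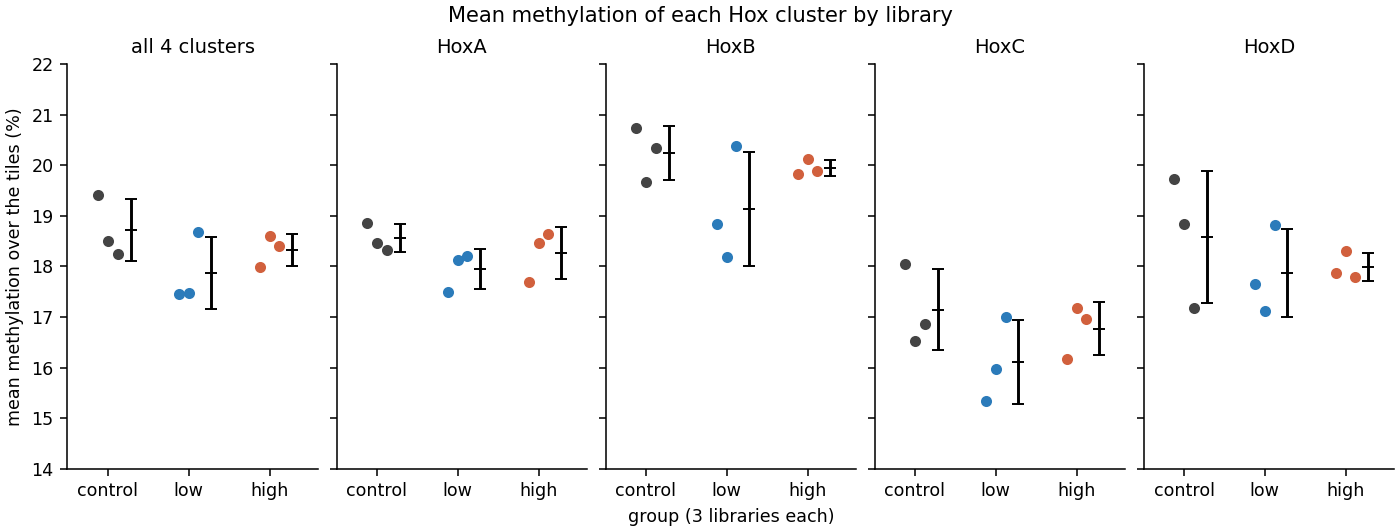
Mean methylation over the tiles (vertical axis, percent, drawn from 14 to 22) of all 4 clusters and of each cluster by group (horizontal axis); points are the 3 libraries of a group, bars mean and SD. Groups overlap in every panel except low against control in HoxA.

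Tiles with the smallest p in each direction are given as values, since none passed the adjustment. HoxB tile 26 (chr11:96263801-96263900), in the predicted gene Gm53 and in the interval between Hoxb13 and Hoxb9, read 35.4, 27.8 and 27.3% in controls, 9.46, 11.1 and 10.5% in low and 14.8, 14.5 and 8.70% in high libraries. All 6 exposed libraries were below all 3 controls, by 19.8 ± 2.55 (SE) percentage points in low and 17.5 ± 2.55 in high (limma, adjusted p = 0.466 and 0.839). HoxD tile 12, 163 bp upstream of the Hoxd12 start and shown above by its sequence, read 38.3, 35.5 and 39.4% in controls, 24.1, 24.4 and 30.6% in low and 30.2, 30.4 and 31.6% in high libraries. Here too the exposed libraries lay below the controls, by 11.4 ± 1.91 in low and 7.01 ± 1.91 in high (limma, adjusted p = 0.636 and 0.992). The next measured tile of Hoxd12, tile 13, did not separate the groups.

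HoxC tile 16, between Hoxc12 and Hoxc11, read 52.4, 44.0 and 45.4% in controls, 32, 24.9 and 32.3% in low and 32.8, 45.3 and 36.1% in high libraries; low and control did not overlap, and high and control did (limma, low against control -17.5 ± 3.90, adjusted p = 0.725). HoxC tile 87, 356 bp from the start of Hoxc4, was higher in exposed libraries, at 4.59, 7.14 and 1.56% in controls, 14.7, 9.86 and 10.9% in low and 13.3, 10.7 and 10.8% in high (limma, both doses against control 7.28 ± 1.59, adjusted p = 0.805). HoxA tile 91 in Hoxa10 was higher with both doses by 5.42 ± 1.40 and HoxA tile 108 in Hoxa11 lower by 4.54 ± 1.06 percentage points, with adjusted p of 0.849 and 0.826 in limma.

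Dose did not order all of these tiles. HoxB tile 94, 384 bp from the Hoxb4 start, read 4.69, 1.67 and 1.25% in controls, 10.9, 10.9 and 17.9% in low and 1.47, 5.83 and 4.17% in high libraries, so that the low group alone was high (limma, low against control 10.7 ± 2.197, adjusted p = 0.678; high against low -9.40 ± 2.197, adjusted p = 0.872). HoxC tile 30, upstream of Hoxc10, read 22.6, 21.8 and 23.7% in controls, 19.05, 20 and 16.3% in low and 32.4, 30.7 and 27.3% in high libraries, with the 3 groups apart and control in the middle (limma, high against low 11.7 ± 1.54, adjusted p = 0.753). HoxC tile 65 was higher in low libraries by 5.96 ± 1.36 (adjusted p = 0.728), HoxB tiles 121 and 54 were higher and HoxA tiles 71 and 76 lower in high than in low libraries, by 10.4, 8.12, 9.69 and 8.71 percentage points (limma, adjusted p of 0.872 to 0.927).

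**Figure D5:**
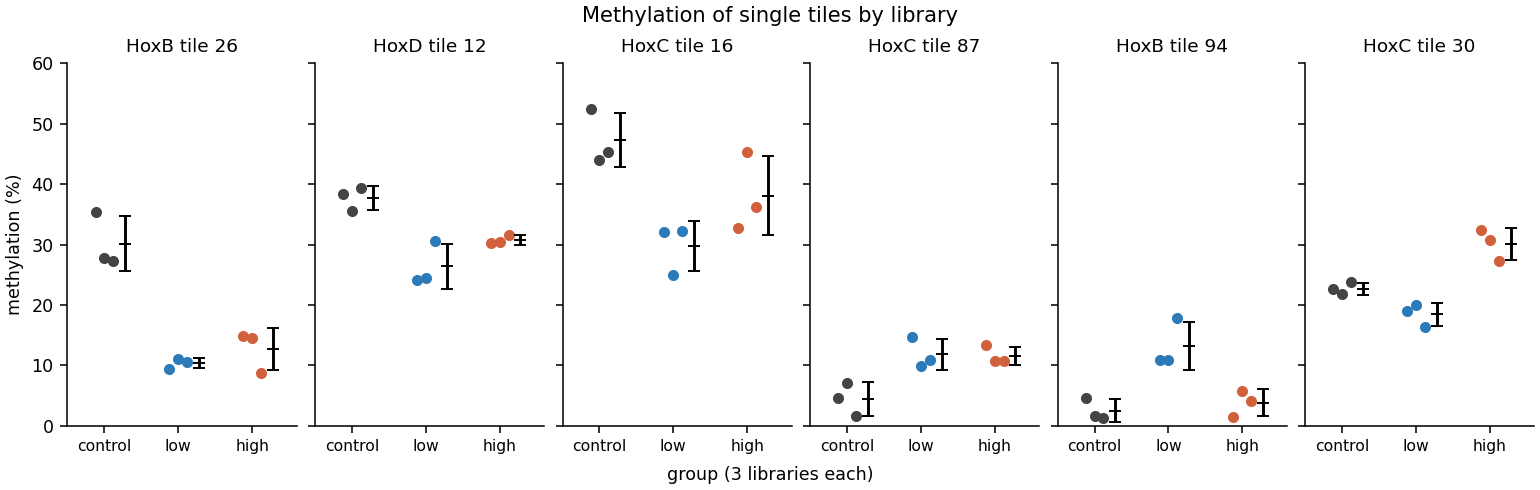
Methylation (vertical axis, percent) of 6 Hox tiles among those of smallest p by group (horizontal axis); points are libraries, bars mean and SD of 3. The 6 exposed libraries lie below the 3 controls in HoxB tile 26 and HoxD tile 12 and above them in HoxC tile 87, while HoxB tile 94 is high in the low group alone; no adjusted p was under 0.05.

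The expression table, in CPM (read counts scaled to a common total) from other libraries, lists Hox genes of groups 1 to 3 only. Hoxb1 was at 36.1 and 27.5 CPM in control, 9.09 and 27.1 in low and 46.9 and 42.8 in high libraries. Low library 1 was the lowest of the 6. Hoxb2 ranged from 3.93 to 15.1 CPM over the 6 libraries, and Hoxa2, Hoxa3, Hoxb3 and Hoxd1 stayed under 3.15 CPM. Among genes with a start tile, the 4 listed as expressed had a median start methylation of 15.98% (7.68 to 28.3%) and the 29 not listed 8.91% (4.12 to 44.3%). Hoxb1 had the highest CPM and the highest start methylation of those 4, the latter from 1 tile. Neither table names its tissue, so whether the values are of the same tissue is not known.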

How the data were processed

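Percent methylation per 100 bp tile was deposited by the authors for 9 RRBS libraries, without coverage, so no coverage minimum or interval could be applied. CPM per gene were deposited by the authors for 6 RNA-seq libraries. Trim Galore, Bowtie2, Bismark, methylKit and edgeR and the builds mm8 and mm10 are named, with no role, per the submitters' processing notes. For the build, tiles inside RefSeq promoters of GRCm38.p6 were checked for a CG: 10634 of 10634 held one, against 78.3% of promoter pieces of equal length.

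Tiles were fitted with limma 3.58.1 in R 4.3.3 on percent values (9 libraries in 1 fit, 6 residual degrees of freedom, no trend), with Benjamini-Hochberg adjustment over 141251 tiles; the fit was tested on simulated data. Means over tiles per library were compared with exact permutation (groups) or sign-flip (within library) tests in SciPy 1.17.1. Hox starts come from the RefSeq promoter table or, for genes it lacks, the outer end of the gene.

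Tiles named are the 3 of smallest p per direction and comparison where none is called, the highest and lowest per cluster, and the 3 of largest spread; results of 1 withheld item are not reported here. Members and lists were chosen with earlier results of these data known. Alternatives were other scales, centring, filters, narrower windows, the replicate number as a block, and leaving out each library.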

Additional observations from a re-analysis of the deposited data

How the results depend on the processing

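With each library left out in turn (36 counts) and under other settings (23 counts), limma called 0 Hox tiles. Over the whole table the same fits called 0 to 2 tiles each, so the Hox tiles do not stand apart here. The settings were the logit scale, a mean-variance trend, centred libraries, tiles of 5 to 95%, the compared groups alone (not for both doses), and the replicate block. The coverage minimum was not run, as the table holds no coverage. Same-numbered libraries did not deviate together (correlations of their deviations -0.033 to 0.029, none over 0.1), and with the replicate number as a block the smallest adjusted p of a Hox tile for low against control was 0.609. The library means kept adjusted p over 0.05 under every alternative run. With the median over tiles, HoxC was 0.84 percentage points higher in low and 0.33 in high than in control, 0.58 for both doses and -0.51 for high against low, and HoxD 0.40 for high against control, all reversed; the cause was not tested. Leaving out 1 library gave -0.47 to 0.0009 for high against control in HoxA, -0.69 to 0.075 in HoxC and -0.26 to 0.59 for high against low in HoxD; HoxA crossed 0 without high library 1 HoxC without control library 1, and HoxD without low library 2 or high library 2.

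Cluster levels depended on the summary. The median over tiles gave 15.1% for all Hox tiles, 16.003% for HoxA, 15.9% for HoxB, 13.2% for HoxC and 14.96% for HoxD, and tiles of 5 to 95% gave means of 20.9, 20.5, 21.9, 19.5 and 21.5%. Narrower windows (10 kb at each end) moved HoxA to 18.7% and HoxC to 17.6%. Without the tiles between Hoxb13 and Hoxb9, an alternative chosen after seeing the data, HoxB was 16.3% and all Hox tiles 17.5%. With bins of 10 kb the highest bin was 23.7% in HoxA, 64.8% in HoxB and 28.9% in HoxD.

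Of the cluster pairs, HoxA minus HoxB was 0.077 by the median (reversed), -0.47 with narrower windows, 1.96 without the HoxB interval and 1.05 at gene starts (both reversed). HoxA minus HoxD, not separable as reported, passed the threshold in both directions. It was 1.04 by the median and 1.47 at starts (adjusted p by the exact sign-flip test 0.0117 and 0.0141). For tiles of 5 to 95% it was -0.92 and away from starts -2.25 (adjusted p by the same test 0.0281 and 0.00586). It did not pass at -0.072 with narrower windows, -0.028 in controls and -0.019 to 0.23 with 1 library left out. HoxB minus HoxD was 0.96 by the median, 0.45 for tiles of 5 to 95%, 0.39 with narrower windows, 0.42 at starts, -0.67 away from starts and -1.85 without the interval, HoxB minus HoxC -0.38 without it, and HoxA minus HoxC 0.32 away from starts. The 3 control libraries alone cannot go below p = 0.25; there HoxA minus HoxB was -1.70, HoxA minus HoxC 1.41, HoxB minus HoxC 3.10, HoxB minus HoxD 1.67, HoxC minus HoxD -1.43, and gene starts minus other tiles -10.6. Gene starts stayed lower under the other 5 settings and with each library left out (-10.5 to -10.4), as did Hox tiles against the rest of the table (-17.8 to -17.5).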
